A study of Mus musculus with 11 samples.

Results

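DARPP-32 is a striatal phosphoprotein that, once protein kinase A (PKA) has phosphorylated it, inhibits protein phosphatase 1. The gene group described here holds DARPP-32 (Ppp1r1b) and 9 genes of related proteins: its relative inhibitor-1 (Ppp1r1a), the PKA substrates ARPP-21 (Arpp21) and ARPP-19 (Arpp19), the tyrosine phosphatase STEP (Ptpn5), a catalytic subunit of calcineurin (Ppp3ca), and 4 subunits of PKA (Prkar1b, Prkar2b, Prkaca, Prkacb). The 10 genes were chosen by name, with earlier results of these data known, and each symbol was matched to 1 Ensembl identifier of GENCODE M21. All 10 were found among the 52550 genes of the count table, and all 10 passed the filter on low counts that left 15373 genes.

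Poly(A) RNA was sequenced in 11 libraries, each from punched tissue of the shell of the nucleus accumbens, which belongs to the ventral striatum. The mice were 8 weeks old, of mixed CBA/C57BL6J/129svEmx strain. The series addresses lower signalling through the retinoic acid receptor Rarb together with a mutation that causes Huntington disease, and its design text names the R6/1 transgene, a fragment of human huntingtin with an expanded repeat. The labels give each library an animal name and a library code but neither its R6/1 nor its Rarb genotype, so no library was placed in a group and no genotypes were compared. Each gene is given by its lowest, median and highest library, and libraries are named by their animal, with codes from 1 (m115) to 14 (m83).

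In projection neurons of the striatum, dopamine acting at Drd1 and adenosine acting at Adora2a raise cyclic AMP, while dopamine acting at Drd2 lowers it. Cyclic AMP binds the regulatory subunits of PKA and frees the catalytic subunits, which phosphorylate DARPP-32, inhibitor-1, ARPP-21, ARPP-19 and STEP. Calcineurin, a phosphatase switched on by calcium and calmodulin, removes the phosphate from DARPP-32 and inhibitor-1 again. High levels of DARPP-32, ARPP-21 and STEP mark these neurons.

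Sites of phosphorylation or inhibition in these proteins are short. Of them 6, not all sites of PKA, are shown because the genes' values are set against each other below. Each is exonic coding sequence of GENCODE M21 on mm10, 5′ to 3′ on the gene's strand, from the longest principal coding transcript. Capitals mark the codon of the residue that takes the phosphate or, in Prkar1b, the codon at that place.
Ppp1r1b, residue 34, chr11:98350575-98350592, plus strand: cgccggagaccaACCcct
Ppp1r1a, residue 35, chr15:103534387-103534404, minus strand: aggcgccgccccACCcct
Arpp19, residue 62, chr9:75056644-75056661, plus strand: tttgatTCTggggactac
Ensa, residue 67, chr3:95628550-95628567, plus strand: tttgacTCAggagactac
Prkar1b, residue 99, chr5:139108532-139108546, minus strand: cggcggggcGGTgtg
Prkar2b, residue 112, chr12:31993782-32038634, minus strand, across an intron: aggcgtgccTCGgtc
The PKA sites of Ppp1r1b and Ppp1r1a share 12 of 18 bases. The sites of Arpp19 and its relative Ensa, which the kinase Mastl phosphorylates and through which both proteins inhibit protein phosphatase 2A, share 15 of 18. The 2 PKA regulatory subunits carry an inhibitor stretch that occupies the catalytic cleft, and these stretches share 8 of 15 bases.

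An intron of Arpp21 also holds the miRNA gene Mir128-2, at chr9:112118636-112118711 on the minus strand (GRCm38.p6, RefSeq). It is shown because its mature product is known as a neuronal miRNA. Capitals mark the seed, bases 2 to 8.
mmu-miR-128-3p: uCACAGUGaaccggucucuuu
Poly(A) libraries do not measure mature miRNAs, and Mir128-2 had at most 3 counts in a library. Its level can therefore not be set beside that of its host.

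RefSeq promoters, 300 bases around a transcript start, were at hand for 7 of the 10 members with 25 starts in all. None was at hand for Ppp1r1b, Ppp1r1a and Ppp3ca, which were not searched. AGGTCA, the half-site that retinoic acid receptors bind, was searched on both strands. It lay in 4 of the 25 windows, 2 overlapping ones at Arpp19 that hold the same match and 1 each at Arpp21 and Prkar1b, and in 16.3% of the 32851 promoters of the table. TGACGT, the core of the cyclic AMP response element, lay in none of the 25 and in 7.51% of all promoters. The 250 bases before the first start of Arpp19 (chr9:75037364-75037613, plus strand, GRCm38.p6) are shown because Arpp19 is among the members of widest range below. Capitals mark the half-site.
Arpp19: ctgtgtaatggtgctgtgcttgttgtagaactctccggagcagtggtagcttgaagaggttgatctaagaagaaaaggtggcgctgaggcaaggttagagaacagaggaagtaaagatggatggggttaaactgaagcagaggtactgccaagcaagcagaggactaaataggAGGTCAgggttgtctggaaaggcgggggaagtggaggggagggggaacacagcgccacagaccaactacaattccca
A match in such a window is a description of its letters and not of binding.

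Library totals ran from 24840981 to 48825783 counts, and 3 counts corresponded to 0.0619 to 0.133 CPM, counts scaled to library size. Mitochondrial genes took 2.90 to 7.21% of the counts. The lowest total and the highest mitochondrial share were both in m61. That library was also the highest for Ppp1r1a, Arpp19, Ppp3ca and Prkar1b below, and the part of these measures in its levels was not tested. All 13 markers of projection neurons were detected. Summed markers of cortical glutamatergic neurons ran from 839 to 2478 CPM, those of oligodendrocytes from 1897 to 4780 CPM, and those of astrocytes from 1573 to 2712 CPM. No marker of the 11 marker lists was without a count in all libraries. In bulk tissue fewer cells of a type and less RNA per cell cannot be told apart.

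DARPP-32 was the most abundant member per kb of exon. Divided by exon length, its median was 220.5 CPM per kb, followed by the PKA regulatory subunit gene Prkar1b (211 CPM per kb), Ppp3ca (119 CPM per kb) and the PKA catalytic subunit gene Prkaca (105 CPM per kb). Ppp1r1a (58.1), Prkacb (52.4), Ptpn5 (47.4), Prkar2b (43.0), Arpp21 (36.8) and Arpp19 (32.8 CPM per kb) formed the lower end. Only some steps of this order held in each library. Prkar1b lay above Ppp3ca, and Prkaca above Ppp1r1a, in 11 of 11 libraries. Ppp1r1b lay above Prkar1b in 6 of 11, Prkacb above Ptpn5 in 6 of 11 and Arpp21 above Arpp19 in 5 of 11, so these orders changed between libraries. Ppp1r1b lay above Prkar1b in m101, m57, m44, m61, m89 and m83, the 6 libraries where Ppp1r1b itself was highest. The lengths are those of all annotated exons, so a gene with many long alternative exons, such as Arpp21 with 17428 bases, is placed low.

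Ppp1r1b (ENSMUSG00000061718, chr11:98348404-98357796, plus strand) had 437.5 CPM in m73, a median of 646 CPM (m101) and 1352 CPM in m44, a ratio of 3.09 between highest and lowest. The values lay apart: 6 libraries had 437.5 to 646 CPM, and m57, m89, m61, m83 and m44 had 993 to 1352 CPM. These 5 libraries carry the codes 9 to 14 and the other 6 the codes 1 to 7. What the codes stand for is not given in the sources used here.

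Ppp1r1a (chr15:103530279-103538003, minus strand), the broadly expressed relative that also inhibits protein phosphatase 1 once phosphorylated, ran from 38.7 CPM (m115) over a median of 75.9 CPM (m74) to 133 CPM (m61). Its ratio of 3.45 was above that of Ppp1r1b. Its 5 highest libraries were the 5 highest of Ppp1r1b, though m74 (75.9 CPM) lay close under m89 (82.1 CPM). Per kb, DARPP-32 exceeded inhibitor-1 in every library, by 3.29-fold in m73 to 6.05-fold in m44.

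Arpp21 (chr9:112065091-112235938, minus strand), whose short form binds calmodulin once PKA has phosphorylated it, ran from 417 CPM (m74) over 642 CPM (m47) to 1151 CPM (m44). The 5 highest libraries, 972 to 1151 CPM, were again those 5. Arpp19 (chr9:75037614-75060313, plus strand) ran from 121 CPM (m74) over 163 CPM (m47) to 362 CPM (m61), and its 5 highest libraries were the same, at 261 to 362 CPM.

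For 4 of the 10 members, then, the same 5 libraries held the 5 highest values, and for no member did they hold the 5 lowest. Of all genes past the filter, 1.67% had their 5 highest values in these libraries and 0.65% their 5 lowest. The 5 libraries were picked by the values of Ppp1r1b, so its own place among the 4 is fixed by the choice, and no test was made. The members were chosen with earlier results of these data known, so the count of 4 is a description.

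**Figure D1:**
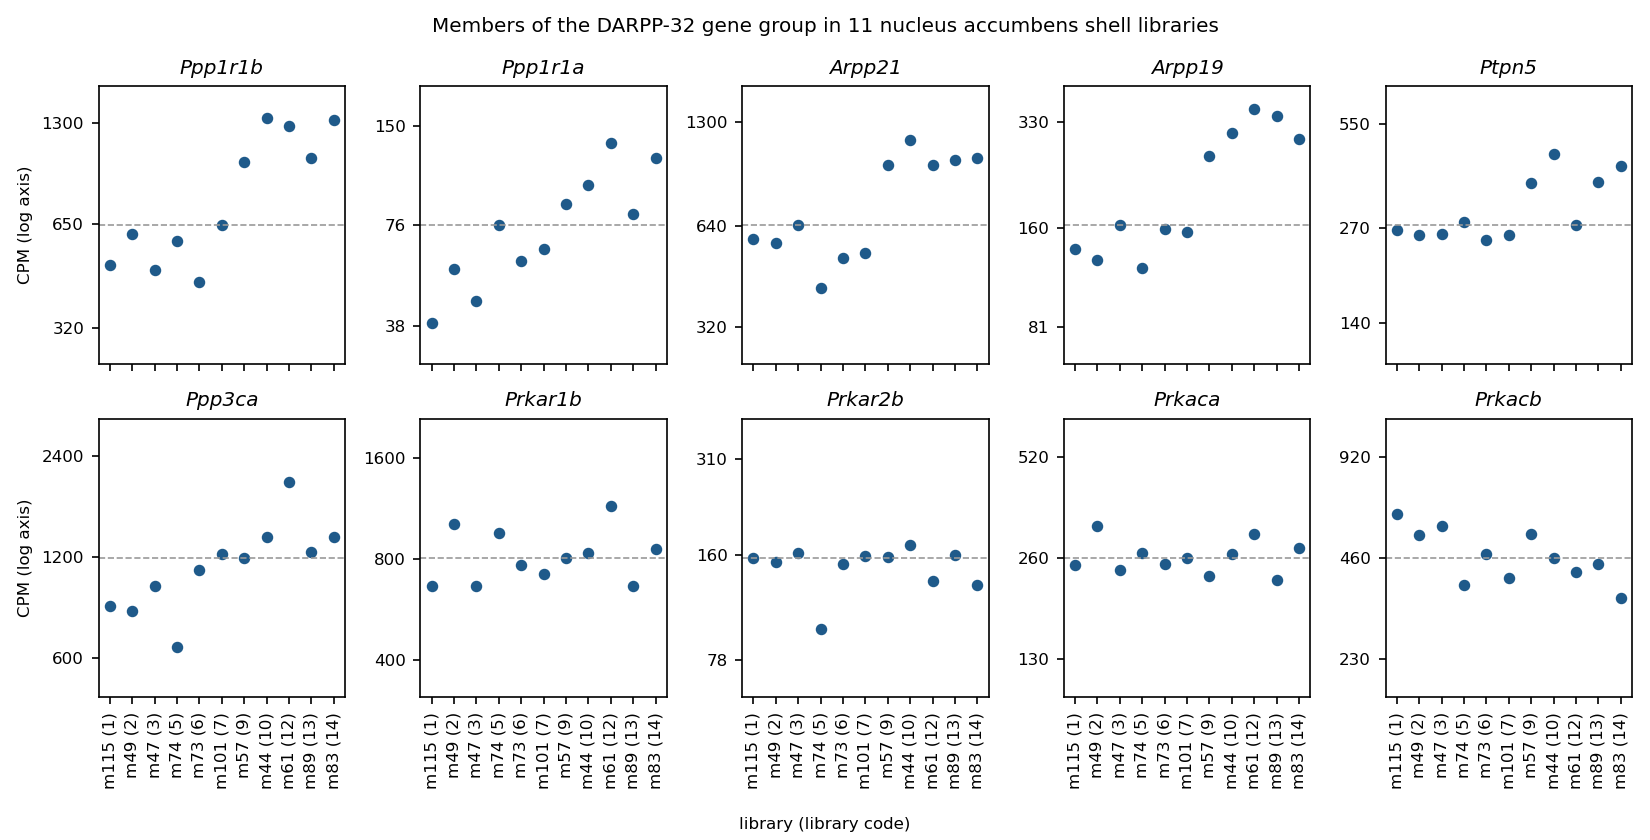
Level of each member in CPM (log axis, each panel centred on its median, dashed) in the 11 libraries, ordered by library code, 1 point per library. Ppp1r1b, Ppp1r1a, Arpp21 and Arpp19 had their 5 highest values at codes 9 to 14, while Prkar1b, Prkar2b, Prkaca and Prkacb did not.

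The phosphatase genes shared most of these high libraries but not all. Ptpn5 (chr7:47077795-47133684, minus strand) encodes STEP, which removes phosphate from tyrosines of ERK and Fyn kinases and of NMDA receptor subunits. It ran from 247 CPM (m73) over 274 CPM (m61) to 447 CPM (m44). Its 4 highest values, 366 to 447 CPM, were in m57, m89, m83 and m44, while m61, among the highest for Ppp1r1b, lay at 274 CPM with the low libraries. Ppp3ca (chr3:136670124-136937727, plus strand), the main calcineurin catalytic gene of the brain, ran from 648 CPM (m74) over 1190 CPM (m57) to 2011 CPM (m61). It shared 4 of its 5 highest libraries with Ppp1r1b, with m101 (1220 CPM) above m57.

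The PKA subunit genes had narrower ranges. Prkar1b (chr5:139017306-139150001, minus strand), the brain-enriched type I regulatory subunit, ran from 663 CPM (m115) over 805 CPM (m57) to 1147 CPM (m61). Prkar2b (chr12:31958476-32061296, minus strand), the type II regulatory subunit that is abundant in striatum, lay between 130 and 172 CPM in 10 libraries and at 96.6 CPM in m74, and its spread, defined below, fell from 0.15 to 0.08 without m74. Prkaca (chr8:83972993-83996443, plus strand), the widely expressed catalytic subunit, ran from 223 CPM (m89) over 260 CPM (m101) to 324 CPM (m49). Prkacb (chr3:146729574-146812990, minus strand), the catalytic subunit enriched in brain, ran from 350 CPM (m83) over 460 CPM (m44) to 623 CPM (m115). High and low libraries of these 4 genes were spread over both ends of the codes.

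The spread of a gene, its biological coefficient of variation over the 11 libraries from edgeR, was 0.43 for Ppp1r1b, 0.42 for Arpp19, 0.38 for Ppp1r1a, 0.35 for Arpp21, 0.30 for Ppp3ca and 0.22 for Ptpn5. It was 0.19 for Prkar1b, 0.18 for Prkacb, 0.15 for Prkar2b and 0.11 for Prkaca. The median was 0.26 over the members and 0.20 over all genes, and 6 members lay above the latter. In 5 members the highest library was at least 2 times the lowest, as in 49.4% of all genes. That share does not set the group apart.

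In 3 members exonic bases were shared with another gene. Ppp1r1b shares 460 exonic bases with 1700003D09Rik on the other strand, which had at most 1.55 CPM. Arpp21 shares 580 with 2900079G21Rik on the other strand (5.91 to 15.8 CPM), and Prkar1b shares 341 with Gm15672 on its own strand (at most 1.70 CPM). Whether counting used strand is not given in the sources used here, and these members' counts are uncertain to that extent.

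The balance within enzyme families was read as a share of the summed CPM per kb, which does not depend on the scaling of a library. Arpp19 took 22.7% (m74), a median of 34.1% (m47) and 51.5% (m89) of the sum of Arpp19 and Ensa, and Ensa took the rest. The 5 highest shares of Arpp19, 43.8 to 51.5%, were in m83, m57, m61, m44 and m89, and the other 6 libraries had 22.7 to 34.1%. Arpp19, the upper term, already had its 5 highest values in these 5 libraries, so the split of its share is a description. Ensa itself ran from 302 to 481 CPM, so the relative with the same inhibitor site had the narrower range.

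Ppp3ca took 66.3% (m115) to 80.0% (m61) of the calcineurin catalytic genes, with a median of 72.1%. Ppp3cb, the other brain isoform, took 17.1 to 29.2%, and Ppp3cc, known from testis, 2.89 to 6.65%. In m101 the share of Ppp3ca was 74.7%, above the 72.1% of m57 and the 73.5% of m89, so the shares of the 5 libraries and the other 6 overlapped. The calcineurin regulatory gene Ppp3r1 ran from 439 CPM (m74) to 1175 CPM (m61).

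Among PKA regulatory genes, Prkar1b took 38.8 to 55.2% and the ubiquitous Prkar1a 36.9 to 48.7%. Prkar2b took 5.81 to 10.6% and Prkar2a 1.81 to 2.91%. The lowest share of Prkar2b and the highest of Prkar1b were both in m74. Prkaca took 58.3% (m115) to 73.7% (m83) of the catalytic genes per kb, with a median of 67.2%. On counts without division by length its median share was 36.8% and that of Prkacb 63.2%, so which catalytic gene leads depends on the long exons annotated for Prkacb. Regulatory over catalytic genes gave 2.57 (m115) to 3.32 (m61), with the narrowest range of these ratios.

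DARPP-32 was also set against its target and its kinase. Ppp1r1b over the 3 catalytic genes of protein phosphatase 1, per kb, ran from 0.912 (m73) over 1.39 (m101) to 2.42 (m44). Over the sum of Prkaca and Prkacb it ran from 0.966 (m73) over 1.47 (m101) to 2.99 (m83). In both ratios the 5 highest values were those of m57, m44, m61, m89 and m83. These 5 libraries were picked by the values of Ppp1r1b, the upper term of both ratios. Their place is thus largely set by that choice and is a description. RNA ratios are not ratios of protein.

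**Figure D2:**
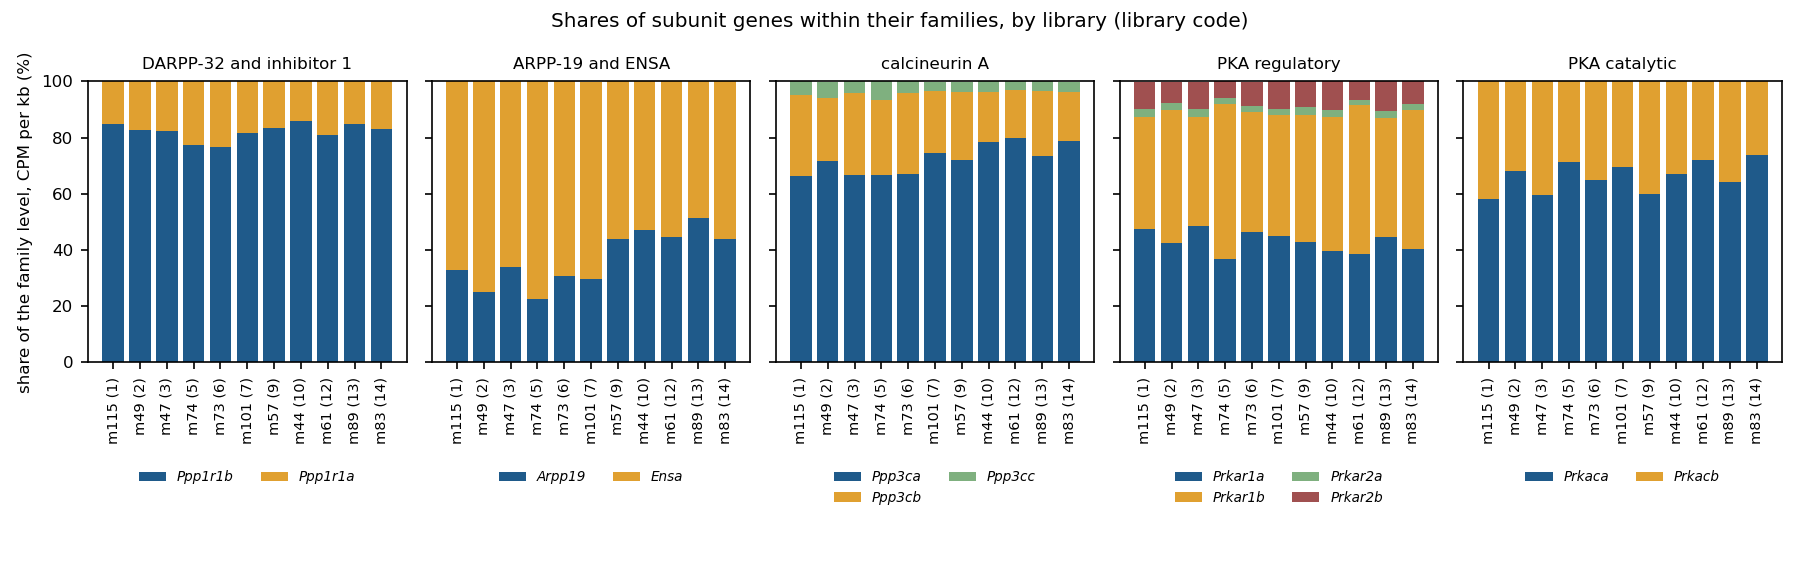
Share of each gene in the summed level of its family (percent of CPM per kb, stacked to 100) in each library, with the library code in brackets. The share of Arpp19 lay at 22.7 to 34.1% in the 6 libraries of codes 1 to 7 and at 43.8 to 51.5% in the 5 of codes 9 to 14, while the shares of PKA subunit genes overlapped. Arpp19 itself had its 5 highest values in those 5 libraries, and the split was chosen after the values were seen.

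Likeness of pattern was measured for every gene past the filter as Pearson's r of log2(CPM + 0.5) with Ppp1r1b over the 11 libraries, with a two-sided test of 100000 permutations and Benjamini-Hochberg adjustment over 15372 genes. At an adjusted p under 0.05, 106 genes rose with Ppp1r1b (0.69% of those tested) and 25 fell (0.163%). Of the 9 other members, 1 was among them. Ppp1r1a had r = 0.90 (p = 0.00023, adjusted p = 0.0402) and Spearman's rho = 0.85 (p = 0.00124, adjusted p = 0.121). Without m44 and m83, the libraries farthest from the median, r was 0.87. That call was lost when any library but m73 was left out, with adjusted p from 0.0452 to 0.126 and r from 0.88 to 0.92. The count of 131 genes fell to between 0 (without m83) and 100 (without m61).

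The others did not pass. Arpp21 had r = 0.89 and rho = 0.79 (adjusted p of r = 0.092), Arpp19 r = 0.89 and rho = 0.68 (adjusted p = 0.092), Ptpn5 r = 0.82 and rho = 0.78 (adjusted p = 0.125), and Ppp3ca r = 0.73 and rho = 0.79 (adjusted p = 0.182). The PKA genes lay lower, with r = 0.37 for Prkar1b, 0.16 for Prkaca, 0.03 for Prkar2b and -0.48 for Prkacb. The slope on Ppp1r1b in edgeR's quasi-likelihood test called 260 genes (1.69%) and 4 members: Ppp1r1a (adjusted p = 0.00495), Arpp21 (0.00515), Arpp19 (0.0045) and Ptpn5 (0.0402). With 1 library left out, r of Ptpn5 ran from 0.77 to 0.96, and it passed the permutation test only without m61, the library where Ptpn5 was low and Ppp1r1b high.

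Since the libraries of codes 9 to 14 lay apart, each relation was also taken within the code ranges. This split was chosen after the values were seen, it separates the libraries as Ppp1r1b does, and it is no labelled batch. Over the 6 libraries of codes 1 to 7, r with Ppp1r1b was 0.50 for Ppp1r1a, -0.29 for Arpp21, -0.48 for Arpp19, 0.31 for Ptpn5 and -0.14 for Ppp3ca. The 5 libraries of codes 9 to 14 are too few for an r of their own. With the code range as a term for all 11 libraries, r was 0.60 for Ppp1r1a, -0.06 for Arpp21, -0.15 for Arpp19, 0.16 for Ptpn5 and 0.15 for Ppp3ca, and 0 genes passed. The split takes away most of the variation of Ppp1r1b itself, and only codes 1 to 7 have an r of their own, so these values do not show whether the members' patterns differ from that of Ppp1r1b.

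**Figure D3:**
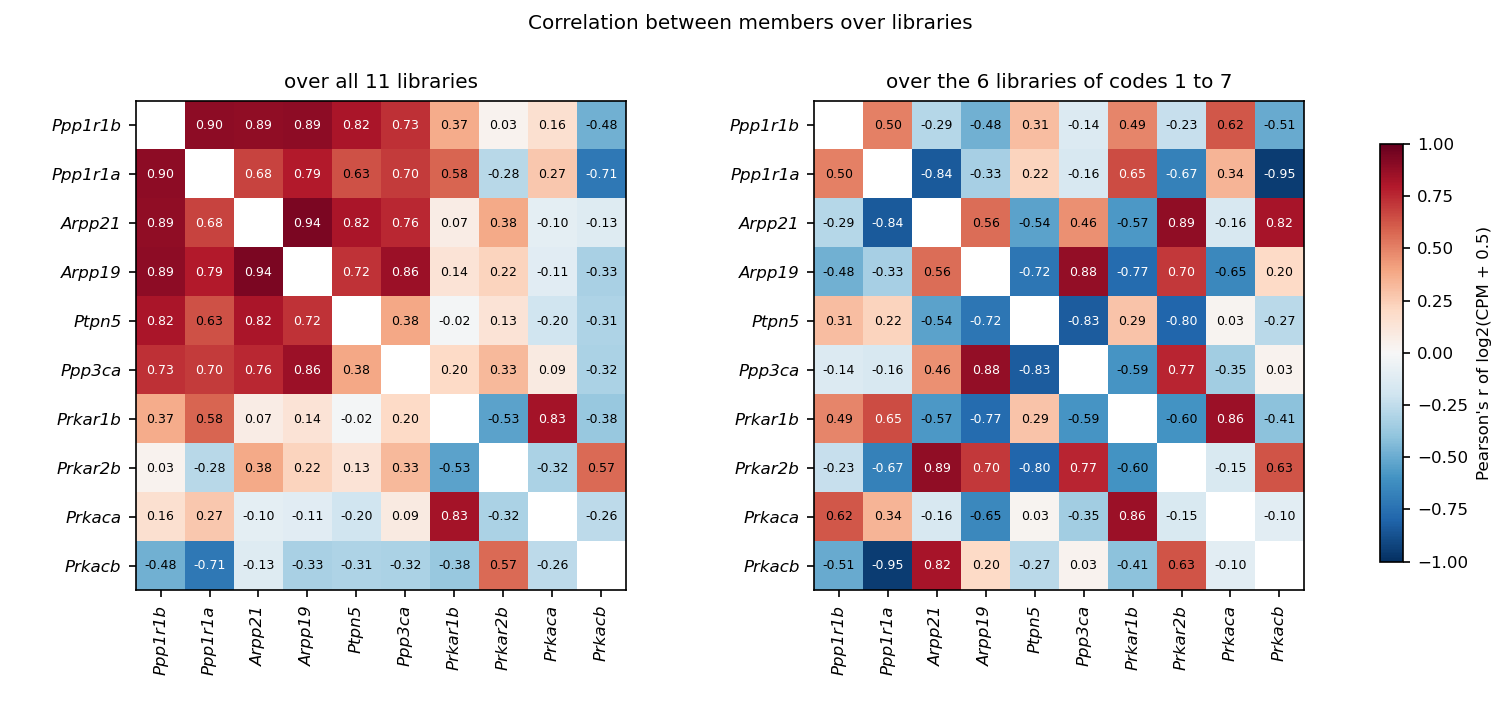
Pearson's r of log2(CPM + 0.5) between the 10 members over all 11 libraries (left) and over the 6 libraries of codes 1 to 7 (right), where the latter rest on few points. Arpp21 and Arpp19 had r = 0.94 over all libraries and 0.56 over the 6, while Prkar1b and Prkaca had 0.83 and 0.86.

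Pairs among the other members differed in how far r held with the code range as a term. Arpp21 and Arpp19 had r = 0.94 and rho = 0.80 over 11 libraries (adjusted p = 0.143 among genes tested against Arpp21) and r = 0.35 with the code range as a term. Arpp19 and Ppp3ca had r = 0.86, rho = 0.91 and 0.79 with that term (adjusted p of the first = 0.101). For Arpp21, Arpp19, Ptpn5, Ppp3ca and Prkar2b as first gene, 0 genes passed by the permutation test, with 1370, 1690, 1140, 1942 and 2072 genes at an unadjusted p under 0.05.

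Prkar1b and Prkaca followed each other. Their r was 0.83 (p = 0.00156, adjusted p = 0.0236) and rho 0.83, with 0.65 without m61 and m49, 0.86 over codes 1 to 7 and 0.87 with the code range as a term. Against Prkar1b 15.3% of all genes passed and against Prkaca 7.65%, so a call there is common. Against Ppp1r1a 2.55% passed, with Ppp1r1b the only member, and against Prkacb 1.26%, with no member. Prkacb and Ppp1r1a had r = -0.71 (adjusted p = 0.108) and -0.84 with the code range as a term.

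Those 3 PKA genes also moved with a technical measure. The median deviation of the 10% longest transcripts minus that of the 10% shortest, in log2 units, ran from -0.64 (m61) to 0.43 (m57) over the libraries. Since 31.4% of all genes followed it, a call there is common and does not set these 3 genes apart. Prkar1b had r = -0.76 with it (adjusted p = 0.0293), Prkaca r = -0.73 (adjusted p = 0.0359) and Prkacb r = 0.81 (adjusted p = 0.0192). Ppp1r1b had r = -0.45 over all libraries (adjusted p = 0.286) and -0.80 over codes 1 to 7, and Arpp21 had -0.05 over all. The part of this measure in the relations between members was not tested. No member followed the mitochondrial share (0.286% of all genes) or the library total (0, with 987 genes at an unadjusted p under 0.05), where Ppp3ca had the highest r with the former, 0.79 (adjusted p = 0.131), and 0.36 without the 2 libraries farthest from its median.

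The genes most like Ppp1r1b were named by rule, the 10 of highest and the 5 of lowest r. Penk, the enkephalin precursor of projection neurons that carry Drd2, led with r = 0.99 (p = 1e-05, the smallest these permutations give, adjusted p = 0.0154). It ran from 301 CPM (m73) over 410 CPM to 1321 CPM (m61), and it had r = 0.98 over the 6 libraries of codes 1 to 7 and 0.91 with the code range as a term. Penk and the genes after it were picked for their r over libraries that include these 6, so such values are a description. Rem2, a small GTPase that restrains calcium channels, had r = 0.99, with 0.98 over codes 1 to 7 and 0.96 with the term. Gabrd, a GABA receptor subunit, followed with r = 0.98, Ier5l and Drd2 with 0.98 each, and Pcp4l1 with 0.98.

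Adora2a, Cd52, Rxrg and Dhrs3 completed the 10, with r of 0.97 each. Rxrg encodes a retinoid X receptor, the partner of retinoic acid receptors, and ran from 35.4 CPM (m47) to 79.2 CPM (m83). Dhrs3 encodes a retinal reductase and ran from 9.69 CPM (m47) to 28.4 CPM (m83). With the code range as a term these 2 had r = 0.82 and 0.79. Cd52, a surface protein of lymphocytes, had a median of 0.97 CPM only. It reached 1 CPM, the level the filter on low counts asks for in some libraries, only in the 5 libraries high for Ppp1r1b, so its place among the 10 is no support.

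At the other end lay Fkbp14, a prolyl isomerase of the endoplasmic reticulum (r = -0.97), Rtp4 (r = -0.94) and Eif2ak2 (r = -0.93), both known as interferon-induced genes, Ash2l (r = -0.92) and Pdk1, a kinase of pyruvate dehydrogenase (r = -0.92). Fkbp14 ran from 7.38 CPM in m44 to 17.4 CPM in m73, the libraries at the top and the bottom for Ppp1r1b. Pdk1 had r = -0.91 with the code range as a term.

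**Figure D4:**
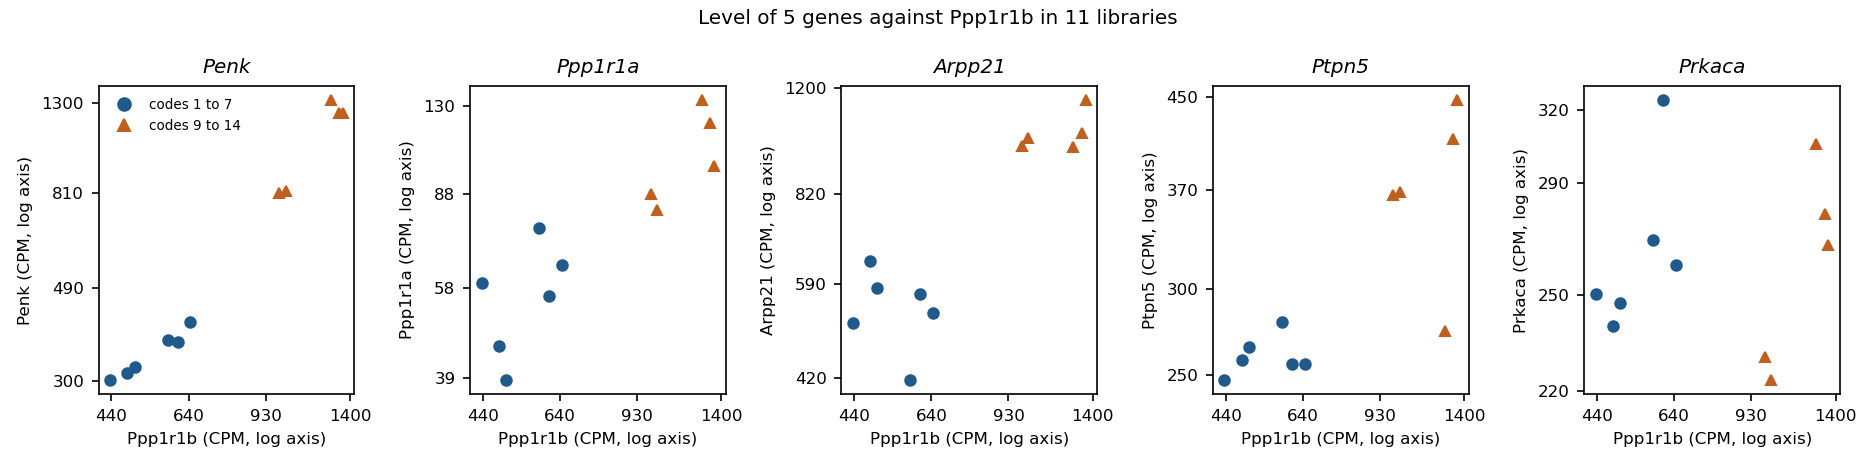
Level of Penk, Ppp1r1a, Arpp21, Ptpn5 and Prkaca against Ppp1r1b (CPM, log axes), 1 point per library, circles for codes 1 to 7 and triangles for codes 9 to 14, a split chosen after the values were seen. Over the circles r was 0.98 for Penk, which was chosen for its r with Ppp1r1b, and -0.29 for Arpp21.

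The nearest genes differed from member to member. Ppp1r1a was most like Tesc (r = 0.98), a calcium-binding protein, and r was 0.95 with the code range as a term. Arpp21 was most like Gpr83 (r = 0.97) and then Drd1 (r = 0.97), the receptor of the direct pathway, and Arpp19 like Rab40b (r = 0.97). Ptpn5 was most like Rin1 (r = 0.98), Ppp3ca like Zfp706 (r = 0.96), Prkar1b like Smpd1 (r = 0.98), Prkar2b like Runx1t1 (r = 0.94), Prkaca like Zdhhc3 (r = 0.98) and Prkacb like Mut (r = 0.96).

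The input to the pathway was read as a list of 9 receptors, G protein subunits, the cyclase and phosphodiesterases. Of the 9, 3 rose with Ppp1r1b (0.69% of all genes), none fell, and the median r was 0.89 against -0.07 over all genes. Adora2a rose with it (r = 0.97, adjusted p = 0.0307), as did Drd2 (r = 0.98, adjusted p = 0.0181) and Pde1b (r = 0.95, adjusted p = 0.0445), a calcium-dependent phosphodiesterase. The cyclase Adcy5 had r = 0.89 (adjusted p = 0.0762), Gng7 0.92 (adjusted p = 0.0529) and Drd1 0.80 (adjusted p = 0.153). Pde10a, which degrades cyclic AMP in projection neurons, had r = 0.39 and -0.94 over codes 1 to 7. For 6 of the 9 the 5 highest libraries were those of Ppp1r1b (1.67% of all genes). Those libraries were picked by the values of Ppp1r1b, and the list was chosen with earlier results of these data known, so the counts are a description. The median r with the code range as a term was 0.41.

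Genes around protein phosphatase 1 were read as the target side. Their summed level ran from 1715 CPM (m74) to 2975 CPM (m61), with 1715 to 2140 CPM in codes 1 to 7 and 2501 to 2975 CPM in codes 9 to 14. That split was chosen after the values were seen, so the sums are a description. Of the 6 genes past the filter, 1, Ppp1r2, had its 5 highest values in codes 9 to 14, against 1.67% of all genes. Of the 6 tested genes, 0 passed by the permutation test and 2 by edgeR, which called 1.69% of all genes: the catalytic gene Ppp1ca (r = 0.85, adjusted p = 0.058 by permutation and 0.0295 by edgeR) and spinophilin, Ppp1r9b (r = 0.87, adjusted p = 0.101 and 0.0163). Their median r was 0.50. Ppp1cb (r = -0.12) and Ppp1cc (r = 0.29) lay apart from Ppp1ca.

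Of 7 PKA partners, 0 passed by permutation or by edgeR, with a median r of -0.30. The PKA inhibitor gene Pkia ran from 154 to 328 CPM and the anchoring protein gene Akap5 from 67.5 to 211 CPM. Of 8 genes around protein phosphatase 2A and Ensa, 8 calcineurin partners and 8 kinases that phosphorylate or regulate DARPP-32, 0 passed by permutation or by edgeR, with median r of 0.41, 0.50 and -0.03. Cdk5, which phosphorylates DARPP-32 at another threonine and turns it into an inhibitor of PKA, had r = 0.37 and ran from 89.02 to 148 CPM. Of 8 STEP substrates and relatives, 0 passed by permutation and 1 by edgeR, Ptpn7, which had a median of 0.72 CPM. Like Cd52, Ptpn7 reached 1 CPM only in the 5 libraries high for Ppp1r1b, so its call is no support.

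Markers of projection neurons were read as a list of 13. Of these, 4 rose with Ppp1r1b (Penk, Gpr6, Pdyn and Rasd2), against 0.69% of all genes, and none fell. Their median r was 0.78, and 0.12 with the code range as a term. The list was chosen with earlier results of these data known, so the count is a description. The sum of the 13 markers ran from 1411 CPM (m74) to 3414 CPM (m61). Isl1, Ebf1, Sp9 and Eya1 of the same list had r from -0.52 to -0.02. The list includes markers of both output pathways, Tac1 and Pdyn of the direct and Penk and Gpr6 of the indirect one.

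The projection neuron score of a library averages the log2(CPM + 0.5) of the 13 markers, each centred on its own median. It ran from -0.41 (m74) to 0.53 (m44), with the 5 libraries of codes 9 to 14 at 0.40 to 0.53 and the other 6 at -0.41 to -0.04. Arpp21 had r = 0.99 with it (p = 1e-05, adjusted p = 0.0512) and rho = 0.89. Its r was 0.91 over codes 1 to 7 and 0.90 with the code range as a term. Of codes 1 to 7, m74 lay apart in score (-0.41, the others -0.16 to -0.04) and was lowest for Arpp21 (417 CPM). An r within codes 1 to 7 without m74 was not taken. Arpp19 had r = 0.93 (adjusted p = 0.134) and 0.31 with the term, and Ppp1r1b r = 0.89 (adjusted p = 0.177) and -0.00203 with it. Prkar2b had r = 0.42 over all libraries but 0.96 over codes 1 to 7 and 0.90 with the term, and its r over the libraries other than m74, where it was low, was -0.16. With this score 0 genes passed by permutation (1381 at an unadjusted p under 0.05) and 94 by edgeR (0.611%), Arpp21, Arpp19 and Ppp1r1b among them (adjusted p = 0.000219, 0.00163 and 0.0104).

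Markers of other cells were read the same way. Of 8 oligodendrocyte markers, all at 8.85 CPM or more in each library, 0 rose with Ppp1r1b by permutation and 4 by edgeR. Over all genes, edgeR called 1.69% with Ppp1r1b. The median r of these 8 markers was 0.79. Ppp1r1a had r = 0.89 with the oligodendrocyte score (adjusted p = 0.0965) and 0.69 with the code range as a term, and Ppp1r1b had 0.81 (adjusted p = 0.21). With the score 4 genes passed (0.026%), no member among them, and 0 passed when any 1 library was left out. By edgeR 30 passed (0.195%), Ppp1r1a among them (adjusted p = 0.0221). Of 4 cholinergic markers, 1 rose with Ppp1r1b by permutation, against 0.69% of all genes. It was Slc18a3 (r = 0.91, adjusted p = 0.0466), at 2.53 to 9.31 CPM. Of 6 astrocyte, 5 microglia, 5 vessel, 6 neuroblast and 8 cortical glutamatergic markers, and of the 3 choroid plexus or ependyma and 3 septal or hypothalamic markers past the filter, 0 passed by permutation or by edgeR. Of 5 markers of GABAergic interneurons, 0 passed by permutation and 3 rose by edgeR, which called 1.69% of all genes with Ppp1r1b. With the cortical score 0 genes passed by permutation (734 at an unadjusted p under 0.05) or by edgeR, and r of the members ran from -0.55 (Prkacb) to 0.54 (Ppp1r1a). The part of these cells in the members' levels was not tested.

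Rarb ran from 49.8 CPM (m74) over 72.9 CPM (m61) to 101.2 CPM (m44). Its reads do not show which libraries carry fewer intact copies, since the altered allele is not described in the labels. With Rarb as first gene 0 genes passed by permutation or by edgeR, with 1654 at an unadjusted p under 0.05, and 4 passed when m101 was left out. Arpp21 had r = 0.77 and rho = 0.82 (adjusted p of r = 0.271), with 0.57 without m74 and m44, 0.95 over codes 1 to 7 and 0.78 with the code range as a term. Prkar2b had r = 0.77 and rho = 0.75 (adjusted p = 0.252), with 0.40 without those libraries and 0.87 with the term. Ppp1r1b had r = 0.47 (adjusted p = 0.585) and -0.39 with the term, and Ppp1r1a 0.12 (adjusted p = 0.9) and -0.87 with it.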

How the data were processed

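The authors deposited 1 table of raw read counts per gene for 11 libraries, with no normalization. The submitters' processing notes list TopHat2 2.0.14, Bowtie2 2.1.0, HTSeq 0.6.1 and mm10. Per the labels' protocols, a stranded poly(A) kit was used on 200 ng of RNA with 12 PCR cycles. CPM were computed with edgeR 4.0.16, using TMM factors on the library totals. The filter on low counts asked for 1 CPM or more in 3 libraries and a median of 10 counts. Relations used log2(CPM + 0.5), Pearson's r, Spearman's rho and 100000 permutations (Python 3.11.15, numpy 2.4.6) for 17 first measures, each adjusted over all genes. Names, lengths and coordinates came from GENCODE M21, which matched 52403 of 52550 identifiers. Intervals over animals are not given, since no library has a group. Named genes were the members, the genes of 19 lists, Rarb, the 3 genes most like each member, and for Ppp1r1b the 10 most and the 5 least like. Members and lists were chosen with earlier results of these data known. Alternatives were DESeq2 1.42.0 size factors, unscaled totals, totals without mitochondrial genes, a pseudocount of 2, no filter, each library left out and an edgeR slope. The scan was also run on simulated counts, with genes drawn independently of each other and at a lower spread than the median of all genes. That run checks the code and not the calls made on these data.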

Additional observations from a re-analysis of the deposited data

How the results depend on the processing

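No paired analysis was possible because the labels place no library in a group. The number of genes that followed Ppp1r1b, 131, was 82 on unscaled totals, 260 by the edgeR slope, 0 with the code range as a term, which was added after the data were seen, and 0 to 100 with 1 library left out. The count for the projection neuron score, 0, was 4 with DESeq2 size factors, 4 on unscaled totals and 94 by edgeR. The count for the oligodendrocyte score, 4, was 16 with DESeq2 size factors, 30 by edgeR, and 0 on unscaled totals, with the code range as a term and with any library left out. The count for Rarb, 0, ran from 0 to 4 with a library left out. The cause was not tested, and a run with 1 library left out also rests on fewer libraries.

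With the code range as a term, r with Ppp1r1b turned to -0.0566 for Arpp21, -0.15 for Arpp19 and -0.26 for Prkar2b. With the projection neuron score it turned to -0.00203 for Ppp1r1b, -0.58 for Ppp1r1a, -0.0361 for Ptpn5, -0.31 for Prkar1b, 0.0344 for Prkaca and 0.64 for Prkacb. With Rarb it turned to -0.39 for Ppp1r1b and -0.87 for Ppp1r1a. On unscaled totals, r turned to -0.0895 for Prkar2b and -0.0711 for Prkaca with Ppp1r1b, to -0.16 for Prkar1b with the projection neuron score and to -0.0228 for Ppp1r1a with Rarb. With 1 library left out, r with Ppp1r1b ran from -0.30 to 0.15 for Prkar2b and from -0.0149 to 0.35 for Prkaca. With the projection neuron score it ran from -0.13 to 0.34 for Prkar1b, from -0.16 to 0.52 for Prkar2b, from -0.25 to 0.0804 for Prkaca and from -0.40 to 0.0471 for Prkacb. With Rarb it ran from -0.00971 to 0.22 for Ppp1r1a. Of these relations none passed the permutation test over all libraries, while edgeR called Arpp21 and Arpp19 with Ppp1r1b and Ppp1r1b with the projection neuron score. The members' median CPM moved by less than their spread under each alternative run. Depth did not limit the members, whose lowest count in a library was 1439 (Ppp1r1a).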

Other observations

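Whether the unassigned libraries fall into separate sets was looked at for the 5 members whose highest library was at least 2 times the lowest, Ppp1r1b, Ppp1r1a, Arpp21, Arpp19 and Ppp3ca. Ppp1r1b had 437.5 CPM in m73, 475 in m47, 492 in m115, 578 in m74, 606.5 in m49 and 646 in m101, then 993 in m57, 1024 in m89, 1274 in m61, 1328 in m83 and 1352 in m44. The gap between m101 and m57 took 38.2% of the range on the log2 scale. Arpp21 had 417 CPM in m74, 512 in m73, 532 in m101, 569 in m49, 583 in m115 and 642 in m47, then 972 in m61, 974 in m57, 1002 in m89, 1021 in m83 and 1151 in m44, with a gap of 40.9% of the range. Arpp19 had 121 CPM in m74, 128 in m49, 138 in m115, 155 in m101, 158 in m73 and 163 in m47, then 261 in m57, 294 in m83, 305 in m44, 343 in m89 and 362 in m61, with a gap of 43.1%. Ppp1r1a had no such gap, since its largest step took 17.7% of the range and lay lower, above m115 and m47. Ptpn5, whose ratio of 1.81 kept it out of the 5, had its largest step, 45.4% of its range, above 7 libraries. Its lower set held m61, so it split the libraries otherwise. How many of all genes have gaps of such size is not given here. Ppp3ca had 648 CPM in m74, 827 in m49, 854 in m115, 979 in m47, 1099 in m73, 1190 in m57, 1220 in m101, 1240 in m89, 1370 in m83, 1372 in m44 and 2011 in m61, and its largest step, 33.7% of the range, set m61 alone apart.

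Within the lower set the orders differ. The library lowest for Arpp21 and Arpp19 was m74, which was the highest of the 6 for Ppp1r1a (75.9 CPM). The library lowest for Ppp1r1b was m73, which was second highest of the 6 for Arpp19. Prkar2b had its largest step, 52.0% of its range, above m74 alone.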
